A study of Mus musculus with 2 samples.

Results

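The miR-15/16 family is a group of microRNAs (miRNAs) that share 1 seed, the bases at positions 2 to 8 by which a miRNA recognises its target mRNAs. Its 6 members on the array, mmu-miR-15a, mmu-miR-15b, mmu-miR-16, mmu-miR-195, mmu-miR-322 and mmu-miR-497, were taken by exact name from the 1023 mouse miRNAs that the array measures. The rule itself uses no measured value, but the family was chosen with earlier results of these data known. All 6 members were among the 175 mouse miRNAs detected on both arrays. The samples were quadriceps, a large thigh muscle, of NF90-NF45 double transgenic mice (dbTg) and of wild-type mice (WT), with 1 array for each genotype. Both came from females at 15 to 16 weeks of age. The promoter of the transgenes, and the number of animals behind each RNA sample, are not given in the sources used here. NF90 and NF45 form a complex that binds structured RNA and is known to interfere with the processing of some primary miRNA transcripts, and the design set the miRNA profiles of the genotypes side by side.

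MiRNAs of this family lower the output of mRNAs that promote the cell cycle and survival, among them those of cyclins and of BCL2. The genes for miR-15a and miR-16 are often deleted in human chronic lymphocytic leukaemia. In skeletal muscle, miR-195 and miR-497 are known to keep muscle stem cells out of the cell cycle, and miR-322 is known to promote cell cycle exit during myoblast differentiation.

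The mature sequences of the members are shown because they carry the shared seed, in capitals, and the bases after it by which the array tells the members apart. They are from RefSeq (GRCm38.p6), which matched 6 of the 6 members.
mmu-miR-15a: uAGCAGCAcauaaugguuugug
mmu-miR-15b: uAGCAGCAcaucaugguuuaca
mmu-miR-16: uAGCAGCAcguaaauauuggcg
mmu-miR-195: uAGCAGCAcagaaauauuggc
mmu-miR-322: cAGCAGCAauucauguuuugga
mmu-miR-497: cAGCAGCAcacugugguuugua

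Counted from 1 at the 5′ end, miR-15b differed from miR-15a at 4 positions (A12C, G20A, U21C and G22A, with the miR-15a base first). MiR-195 differed from miR-16 at 2 of the 21 positions they share (G10A and U11G, with the miR-16 base first). In miR-497 the changes from miR-15a were U1C, U11C, A12U, A13G and G22A. No other miRNA of the array with a RefSeq sequence had the seed, among the 837 of 1023 that matched.

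Each member was read by 2 probes, which pair with the mature sequence from its 3′ end back to a base between positions 1 and 6. The longer probes of both closest pairs are shown 5′ to 3′ as the array files give them, with capitals at the bases that pair with, or extend over, a mature base not shared by the partner in the pair.
mmu-miR-15b probe: TGTaaaccatGatgtgctgc
mmu-miR-15a probe: CACaaaccatTatgtgctgcta
mmu-miR-195 probe: gccaatatttCTgtgctgc
mmu-miR-16 probe: CgccaatatttACgtgct
The miR-195 probes had 2 mismatches with miR-16, and the miR-16 probes had 3 with miR-195. Among mature miRNAs matched to the array, the nearest outside the family differed from any member probe by at least 6 bases. RefSeq lists 4 further miRNAs with the seed that were not matched to the array and not compared. Among them is miR-195b, which is close to miR-195 in sequence. No probe for another mouse miRNA lay within 1 mismatch of a member probe, and the smallest number found was 3. Each member probe therefore differed by fewer bases from its nearest other member than from the other miRNAs compared. The hybridisation of one member to another's probe was not measured.

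Of 43200 miRNA spots per array, 7639 (17.7%) were well above background on the dbTg array and 6454 (14.9%) on the WT array. A share of 0.5 or more of such spots made a probe detected, which gave 211 mouse miRNAs on the dbTg array and 180 on the WT array. The signals were then expressed relative to the 75th percentile over probes that passed on both arrays, 1220 intensity units for dbTg and 882 for WT. This scaled signal is 1 at that percentile, and the scaling lowers every dbTg to WT log2 ratio by 0.47. After it, the median log2 ratio of the 175 miRNAs was 0.0031, with quartiles of -0.59 and 0.58. The skeletal muscle miRNAs miR-133a, miR-133b and miR-1 were bright in every probe of both arrays. The liver miRNA miR-122 and the neuronal miRNAs miR-124 and miR-9 had no detected probe.

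The whole family was brighter in dbTg quadriceps than in WT quadriceps. All 6 members had a log2 ratio above 0, where 50.9% of the 175 miRNAs did. However, 3 members were below 0 when scaled on the hur and mr control probes, a setting added after the data were seen. Under that setting 42 of the 175 miRNAs were above 0. As reported, the members' log2 ratios ran from 0.31 to 1.02 with a median of 0.71 (spot SE 0.012), a 1.63-fold difference. Only miR-15b passed the 2-fold size used for counting, 1 of 6 members against a background of 11.4% of the 175 miRNAs. That count was 0 in 10 of the 18 processing alternatives, 4 without scaling and 3 when scaled on spike-in probes. Of the 175 miRNAs, 49 were at least 2-fold higher without scaling and 35 when scaled on spike-in probes. None of the 6 was at least 2-fold lower, where 10.3% of the 175 were. The members' mean was 0.68 with an SD between members of 0.29. By rank of the ratio, 4 of 6 members lay above the upper quartile of the 175 miRNAs. Of these 4, miR-322 was only just above it, at 0.5856 against 0.5844.

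Because each genotype had 1 array, the difference could not be tested and carries no p-value. The spot SE covers the spread between copies of a probe within an array, not the spread between animals or labellings. In bulk muscle, a change in the number of cells of a type and a change in RNA per cell cannot be told apart.

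**Figure D1:**
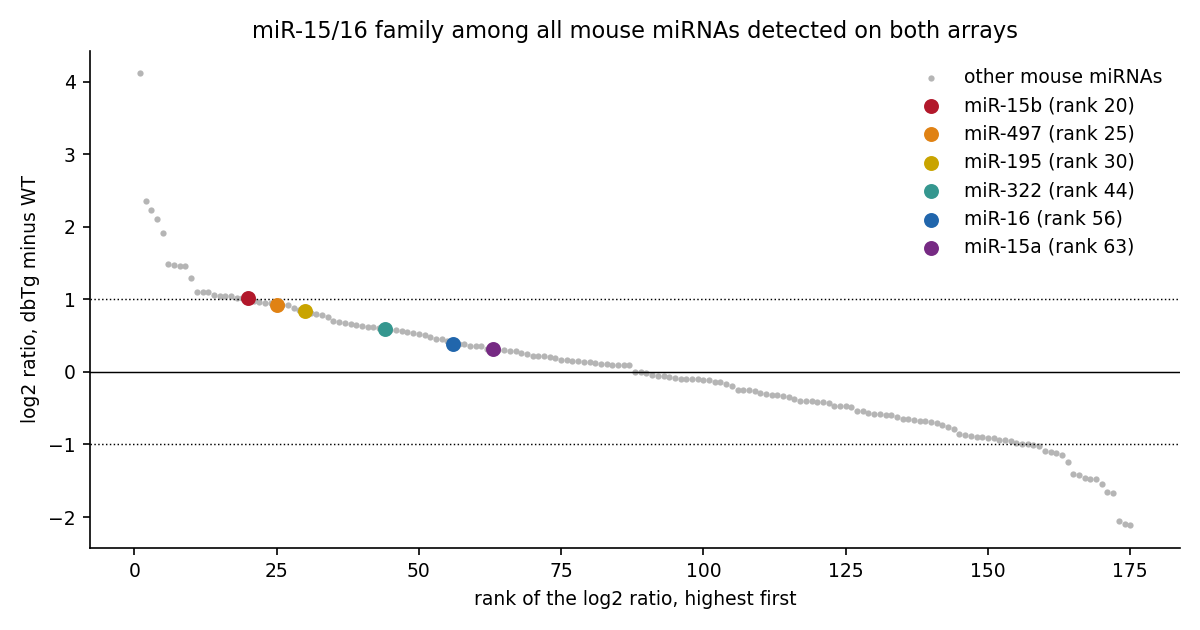
Log2 ratios (dbTg minus WT) of the 175 mouse miRNAs detected on both arrays, in order of rank, with the 6 family members in colour, at ranks 20 (miR-15b), 25 (miR-497), 30 (miR-195), 44 (miR-322), 56 (miR-16) and 63 (miR-15a). All 6 sit above 0, although miR-322, miR-16 and miR-15a lie below 0 when the arrays are scaled on the hur and mr control probes.

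MiR-15b had the highest log2 ratio of the family, except with normexp background correction. It is made from the same primary transcript as miR-16, from a hairpin pair that the RefSeq annotation places within Smc4, the gene of a condensin subunit that compacts chromosomes. The files place the probe targets of this pair at chr3:68813700-68813861 on the plus strand of mm9, a span of 162 bases. Averaged over its probes, the miR-15b signal was 567 intensity units on the dbTg array and 205 on the WT array. Its shorter probe had a lowest, median and highest scaled spot signal of 0.315, 0.354 and 0.375 on the dbTg array (n = 19 spots), against 0.149, 0.169 and 0.198 on the WT array (n = 19 spots). Its longer probe gave 0.499, 0.587 and 0.646 on the dbTg array and 0.263, 0.297 and 0.332 on the WT array (n = 20 spots each). On this scale every dbTg spot of either probe was above every WT spot, so the arrays did not overlap. For this and the other members, the share of all detected probes that separate in this way is not given here. The log2 ratio was 1.02 (spot SE 0.021), or 2.02-fold, with 0.97 by the longer probe and 1.06 by the shorter. The 2-fold size thus lay between the values of its probes.

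**Figure D2:**
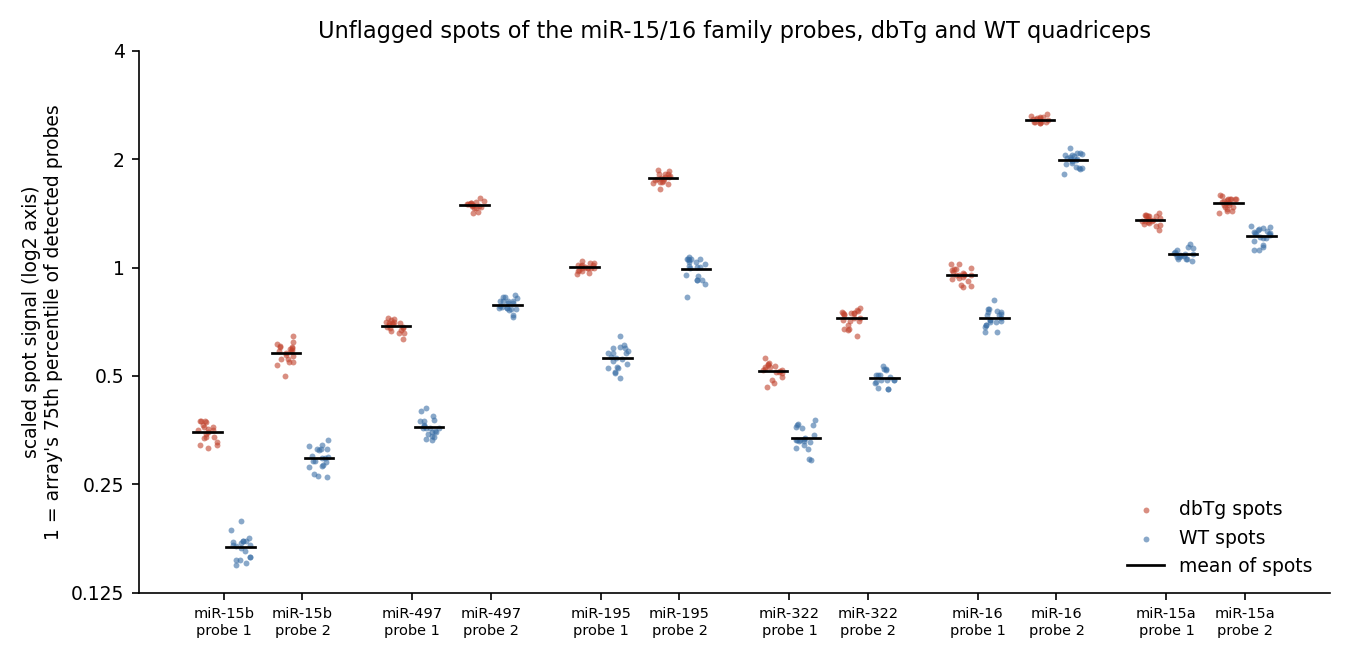
Scaled signal of every unflagged spot (log2 axis, 1 being the array's 75th percentile of detected probes) for the 12 member probes, dbTg to the left of WT, with black lines at the mean of the spots. Probe 1 is the shorter of the member's probes. In all 12 probes the lowest dbTg spot is above the highest WT spot on this scale. How many of all detected probes separate in this way is not given here.

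MiR-497 and miR-195 stood next to miR-15b. Both come from 1 cluster, which the files place at chr11:70048235-70048584 on the plus strand of mm9, 350 bases from the miR-497 probe target to that of miR-195. MiR-497 averaged 1330 intensity units on the dbTg array and 507 on the WT array. Its shorter probe had a lowest, median and highest scaled spot signal of 0.634, 0.694 and 0.724 on the dbTg array (n = 19 spots), against 0.332, 0.358 and 0.407 on the WT array (n = 20 spots). Its longer probe gave 1.42, 1.49 and 1.56 on the dbTg array (n = 17 spots) and 0.730, 0.787 and 0.841 on the WT array (n = 20 spots). The dbTg spots lay above all WT spots in both probes, and the log2 ratio was 0.92 (spot SE 0.013), or 1.90-fold.

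MiR-195, which is also known to halt the division of heart muscle cells after birth, averaged 1690 intensity units on the dbTg array and 686 on the WT array. The shorter of its probes gave a lowest, median and highest scaled spot signal of 0.961, 0.999 and 1.04 on the dbTg array (n = 18 spots) and 0.492, 0.563 and 0.646 on the WT array (n = 20 spots). The longer gave 1.65, 1.77 and 1.86 on the dbTg array (n = 18 spots) and 0.829, 1.01 and 1.07 on the WT array (n = 20 spots). Again no dbTg spot was as low as any WT spot. The log2 ratio was 0.83 (spot SE 0.017), or 1.78-fold, and its probes gave the same value to 2 decimals. The members of this cluster differed from each other by 0.092 in log2 ratio.

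MiR-322, the mouse counterpart of human miR-424, was intermediate. The files place its probe target at chrX:50407455-50407475 on the minus strand of mm9, and RefSeq places its hairpin within the long non-coding RNA C430049B03Rik. It averaged 757 intensity units on the dbTg array and 366 on the WT array. By its shorter probe the lowest, median and highest scaled spot signals were 0.467, 0.519 and 0.561 on the dbTg array (n = 18 spots) and 0.293, 0.333 and 0.376 on the WT array (n = 20 spots). By its longer probe they were 0.647, 0.731 and 0.770 on the dbTg array (n = 20 spots) and 0.459, 0.489 and 0.534 on the WT array (n = 17 spots). The spots of the arrays did not overlap in either probe. The log2 ratio was 0.59 (spot SE 0.018), or 1.501-fold, with 0.62 by the shorter probe and 0.55 by the longer. It was -0.022 when scaled on the hur and mr control probes.

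The other miRNAs of the miR-322 cluster were mostly dark, so that miR-322 alone had a log2 ratio there. Of 11 names, 10 had no detected probe. Among these was miR-503, which RefSeq places in the same long non-coding RNA, with 14.4 intensity units on the dbTg array and 2.67 on the WT array. At most 15% of the spots of a miR-503 probe were well above background on the dbTg array and 0% on the WT array. MiR-450a was detected by 1 of its 2 probes on the dbTg array only. That probe had 54.1 intensity units on the dbTg array and 30.01 on the WT array. On the scaled signal it was at least 1.13-fold higher in dbTg, a bound that takes the dimmest detected probe of the WT array, or the probe's own WT signal where that is brighter, as the WT level.

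MiR-16 had one of the smaller differences. It is encoded by more than 1 gene, Mir16-2 beside Mir15b and Mir16-1 beside Mir15a, and the mature sequence of both genes is the same, so the probes read their sum. Its signal averaged 2155 intensity units on the dbTg array and 1197 on the WT array. Its shorter probe had a lowest, median and highest scaled spot signal of 0.882, 0.955 and 1.03 on the dbTg array and 0.660, 0.720 and 0.815 on the WT array (n = 20 spots each). Its longer probe gave 2.51, 2.58 and 2.66 on the dbTg array (n = 16 spots) and 1.82, 2.003 and 2.14 on the WT array (n = 20 spots). No spots overlapped between the arrays, and the log2 ratio was 0.39 (spot SE 0.013), or 1.31-fold, though it was -0.22 when scaled on the hur and mr control probes.

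MiR-15a had the lowest ratio of the family. With Mir16-1 it lies in the long non-coding RNA Dleu2, and the files place the probe targets of that pair at chr14:62250736-62250899 on the minus strand of mm9, a span of 164 bases. Its signal averaged 1749 intensity units on the dbTg array and 1021 on the WT array. The lowest, median and highest scaled spot signals of its shorter probe were 1.27, 1.35 and 1.42 on the dbTg array (n = 20 spots) and 1.04, 1.09 and 1.16 on the WT array (n = 18 spots). Those of its longer probe were 1.42, 1.52 and 1.59 on the dbTg array and 1.12, 1.24 and 1.301 on the WT array (n = 20 spots each). Each dbTg spot was above each WT spot of the same probe. The log2 ratio was 0.31 (spot SE 0.011), or 1.24-fold, but -0.30 when scaled on the hur and mr control probes.

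The members thus did not share 1 size of difference. From miR-15b to miR-15a the log2 ratios spanned 0.71, a 1.63-fold difference between the folds. The probe values of all 15 pairs of members did not overlap, with 2 probes per member. The share of such pairs among all detected miRNAs is not given here. The difference that was smallest relative to its spot SE, at 3.68 times, was between miR-15b and miR-497. With normexp background correction the order at the top changed, to miR-497 (0.81), miR-195 (0.76) and miR-15b (0.72). Spot error also does not hold what a second pair of animals would add.

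Set out by locus, the ratios of the cluster partners were close in 2 of the 3 pairs. MiR-497 was 0.092 above miR-195, and miR-15a was 0.077 below miR-16. MiR-15b was 0.63 above miR-16, or 1.55-fold. Since miR-16 sums the output of the chromosome 3 and chromosome 14 loci, its value stands in both pairs and cannot be assigned to either locus.

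**Figure D3:**
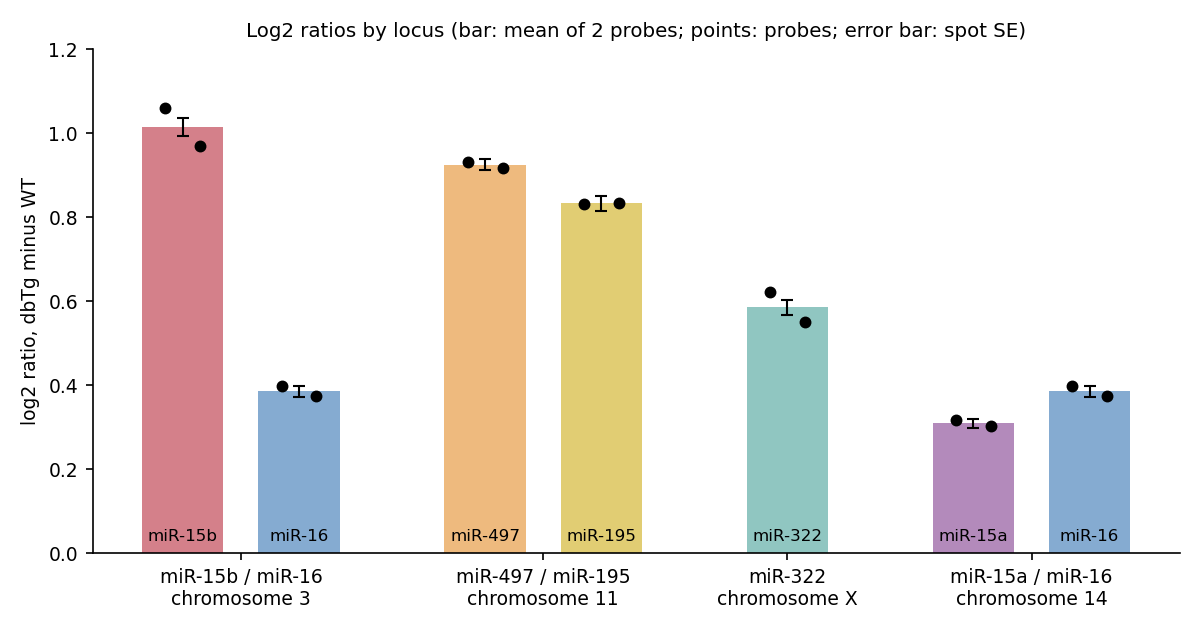
Log2 ratio (dbTg minus WT) of each member by genomic locus, with bars for the mean of its 2 probes, points for the probes and error bars for the spot SE. MiR-16 is drawn at both of its loci with the same value, 0.39, beside 1.02 for miR-15b on chromosome 3 and 0.31 for miR-15a on chromosome 14. Scaled on the hur and mr control probes, miR-322, miR-16 and miR-15a would lie below 0.

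A miRNA hairpin yields a second strand that is usually degraded, named with an asterisk on this array. The 7 second strands of the family on the array (miR-15a*, miR-15b*, miR-16-1*, miR-16-2*, miR-195*, miR-322* and miR-497*) had 0% of spots well above background in every probe of both arrays. Their mean signals were between -3.28 and 4.95 intensity units on the dbTg array and between -5.28 and 3.95 on the WT array. The comparison of the genotypes therefore rests on the main strands alone. The name miR-16* was not among those of the array.

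The relatives whose seed is shifted or changed by 1 base are shown for contrast, with their bases 2 to 8 in capitals.
mmu-miR-103: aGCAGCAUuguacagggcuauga
mmu-miR-107: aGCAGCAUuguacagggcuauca
mmu-miR-503: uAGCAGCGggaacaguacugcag
MiR-103 and miR-107, which act on metabolic genes, hold the letters GCAGCA 1 base nearer the 5′ end than the family does. MiR-103 had 563 intensity units on the dbTg array and 430 on the WT array, and a log2 ratio after scaling of -0.098 (spot SE 0.019). MiR-107 had 759 intensity units on the dbTg array and 483 on the WT array, and a log2 ratio of 0.22 (spot SE 0.014). Both ratios were below that of every family member under the same scaling.

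Grouping the 137 detected miRNAs that matched RefSeq by their bases 2 to 8 gave 7 seeds with at least 3 such miRNAs. The median log2 ratio was 0.71 for the miR-15/16 seed, with 6 of 6 above 0. It was 0.30 for miR-106b, miR-20a, miR-20b and miR-93 (3 of 4 above 0) and 0.23 for miR-148a, miR-148b and miR-152 (2 of 3 above 0). For the let-7 seed it was 0.15, with 7 of 9 above 0, and for miR-100, miR-99a and miR-99b it was 0.089, with 2 of 3 above 0. MiR-29a, miR-29b and miR-29c had a median of -0.32 (1 of 3 above 0), and miR-30a, miR-30c and miR-30e one of -0.9996 (0 of 3 above 0). MiR-30b (-0.33) and miR-30d (-0.47) were also detected on both arrays but are not among these 3 miR-30 miRNAs. The median of -0.9996 therefore does not cover every detected miRNA named miR-30. The miR-15/16 seed had the highest median of the 7 seeds, a difference that was not tested. Seeds with detected members missing from the match are counted short.

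The miRNAs with log2 ratios nearest to the family median, as the absolute difference over the 2 arrays, were miR-677* (0.71), let-7c (0.69), miR-3072* (0.68), let-7e (0.66) and miR-690 (0.76). Across the 175 miRNAs the log2 ratio had a Spearman correlation of -0.0027 with the mean level (Pearson -0.030), a description over miRNAs that share the same pair of arrays.

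Of the marker lists, those for fibroblasts and immune cells had a median log2 ratio above 0, as the family had. Among the 175 miRNAs, 50.9% were above 0 and 11.4% at least 2-fold higher. The 6 miRNAs listed for fibroblasts were detected on both arrays, with 6 of 6 above 0, 1 at least 2-fold higher, a median log2 ratio of 0.74 and a range from 0.54 to 1.04. Their summed scaled signal was 5.59 in dbTg and 3.26 in WT. Of the 6 immune cell miRNAs, 5 were detected on both arrays, with 5 of 5 above 0 and 3 at least 2-fold higher. The ratios of miR-150, miR-155 and miR-146a rest on 1 probe each, as only 1 of their 2 probes was detected on the WT array. The median log2 ratio of the 5 miRNAs detected on both arrays was 1.11, with a range from 0.26 (miR-150) to 2.36 (miR-146a). The remaining one, miR-142-5p, was detected in dbTg only. The scaled signals of all 6, undetected probes included, summed to 2.31 in dbTg and 0.699 in WT. No defining marker of either list was dark in dbTg.

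The lists for blood vessels, red cells and skeletal muscle had medians below 0. The 4 blood vessel miRNAs summed to 6.37 in dbTg and 6.40 in WT, with 1 of 4 above 0 and a median of -0.37. The 2 red cell miRNAs summed to 2.51 in dbTg and 3.06 in WT, with 0 of 2 above 0 and a median of -0.28. The 6 skeletal muscle miRNAs summed to 178 in dbTg and 315 in WT, with 1 of the 4 detected on both arrays above 0 and a median of -0.94. Of these, miR-206, which is raised in regenerating fibres, had a log2 ratio of 4.11, miR-499 was detected in dbTg only, at least 1.81-fold higher, and miR-208b had no detected probe. The part of these cell types in the family's ratios was not tested.

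The authors' deposited table holds linear values of the same 2 arrays, scaled by 1 constant per array of unstated origin. All 6 members were higher in dbTg there, where 75 of the 175 miRNAs were above 0, with a median log2 ratio of -0.14. For miR-15b the authors' deposited table has 2.77 in dbTg and 1.56 in WT, and for miR-15a it has 8.53 in dbTg and 7.77 in WT. The log2 ratios computed from the authors' deposited table were 0.83 for miR-15b, 0.75 for miR-497, 0.66 for miR-195, 0.41 for miR-322, 0.21 for miR-16 and 0.14 for miR-15a. The order of the members was that of the scanner signals. No member reached the 2-fold size, where 11 of the 175 miRNAs were at least 2-fold higher.

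Every log2 ratio here depends on how the arrays are brought to 1 scale. Without scaling the family median was 1.18 and that of all 175 miRNAs 0.47. At least 2-fold higher were then 4 of 6 members and 49 of the 175 miRNAs. Scaled on the hur and mr control probes, the family median was 0.10 and that of all 175 miRNAs -0.60, and miR-15a (-0.30), miR-16 (-0.22) and miR-322 (-0.022) were below 0. Of the 18 alternatives, 7 only multiply an array by another constant and so leave each member's distance from the median of all miRNAs as it was. In the other 11, the family median was 0.62 to 0.79 above the median of all miRNAs, and all 6 members were above it in 11 of 11. Among these 11, total gene signal and the authors' processed values differ only by a constant per array, so they are not separate.

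**Figure D4:**
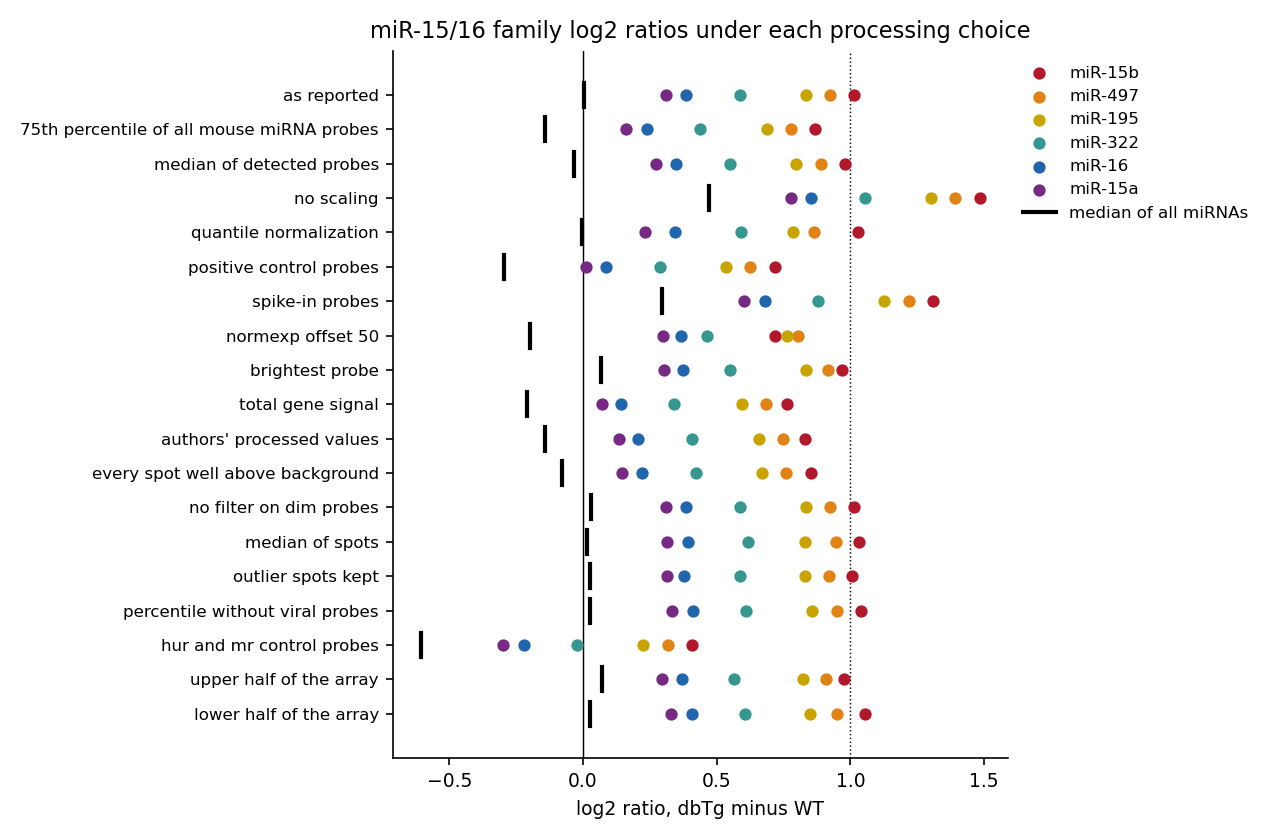
Log2 ratios (dbTg minus WT) of the 6 members as reported and under the 18 processing alternatives, with a black bar at the median of all miRNAs in each and a dotted line at the 2-fold size. Every member lies to the right of the black bar, whose distance from the members 7 of the alternatives cannot change, and miR-15a, miR-16 and miR-322 lie below 0 only where the arrays are scaled on the hur and mr control probes.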

How the data were processed

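Cy3-labelled total RNA was measured on Agilent miRNA arrays of 1 colour, per the labels' protocols. The authors deposited 1 file of spot intensity values per array, made with Agilent Feature Extraction 10.7.3.1 and already background-subtracted, per the file headers. The arrays shared a slide and a scan. The sources used here do not give the origin of the constants behind the authors' deposited table.

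Processed signals of unflagged spots were averaged per probe, leaving 225 of 240 member spots on the dbTg array and 234 of 240 on the WT array, none saturated. Probes had to have at least 0.5 of their spots well above background on both arrays. Signals were divided by the 75th percentile over these probes, and log2 ratios were averaged over probes. Copies of a detected probe had a median coefficient of variation of 5.53% on the dbTg array and 6.59% on the WT array. The number of arrays limits the precision. No column of values was left unused for want of a sample (0 columns).

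The members and lists were chosen with earlier results of these data known. Named are all members, their second strands, the miR-322 cluster, relatives with a shifted or near seed and the 5 nearest ratios, besides the marker lists. The seed groups and their members fall outside this rule and were added after their values were seen. Alternatives covered scaling, background correction, probe and spot summaries and filters. Scripts (Python 3.11.15, numpy 2.4.6, pandas 2.3.3, R 4.3.3 with limma 3.58.1 for normexp) were tested on simulated data.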

Additional observations from a re-analysis of the deposited data

How the results depend on the processing

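No paired analysis was possible because each genotype has 1 array. The family median log2 ratio was 0.71 as reported. Over other scalings it was 0.56 (75th percentile of all mouse probes), 0.67 (median of detected probes), 1.18 (no scaling), 0.41 (positive control probes) and 1.003 (spike-in probes). Added after seeing the data, it was 0.73 (percentile without viral probes) and 0.10 (hur and mr control probes). It was 0.59 with normexp, 0.47 with total gene signal, 0.53 with the authors' processed values and 0.55 where every spot had to be well above background. The number of members above 0 was 3 under the hur and mr control probes, where miR-15a (-0.30), miR-16 (-0.22) and miR-322 (-0.022) reversed. It was 6 under the other 17 alternatives. Of the 175 miRNAs, 42 were above 0 under the hur and mr control probes. Among the other alternatives that kept 175 miRNAs, this count ran from 65 with positive control probes to 123 without scaling.

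The number of members at least 2-fold higher, 1 as reported, was 4 without scaling and 3 with spike-in probes. Of the 175 miRNAs, 49 and 35 were in these settings. The number of members was 4 at a threshold of 1.5-fold. There miR-322 passed at 1.501-fold, at rank 44 of the 175 miRNAs, so at least 44 of them passed. The number of members was 0 at 3-fold, where no share of all miRNAs is given. It was also 0 with the 75th percentile of all mouse probes, the median of detected probes, positive control probes, and hur and mr control probes. With normexp, the brightest probe, total gene signal and the authors' processed values it was 0 as well. The same held for every spot well above background, and for the spots of the upper rows of the array, an alternative added after seeing the data. Of all miRNAs, between 5 (hur and mr control probes) and 21 (brightest probe) were at least 2-fold higher in these settings. The order of the members was the same in 10 of the 11 alternatives that do more than multiply an array by a constant. Requiring every spot well above background, or using no filter on dim probes, left the differences between members unchanged. Their order could not change there. The authors' processed values are the total gene signal divided by a constant per array, so these are not separate alternatives. With normexp, miR-15b (0.72) lay below miR-497 (0.81) and miR-195 (0.76). A change of the constant that scales an array shifts all miRNAs together by construction. Quantile normalization does not, and the range between members was 0.80 with it against 0.71 as reported. The cause of the other changes was not tested. Signal over background limits the second strands and most of the miR-322 cluster, for which no ratio could be given.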
